A study of Mus musculus with 31 samples.

Results

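The oxidative phosphorylation subunits described here are the nuclear genes of the respiratory chain and ATP synthase whose names on the array begin with Nduf, Sdh, Uqcr, Cox or Atp5 followed by a subunit letter or number. The naming rule found 84 of the 34797 genes on the array, with 127 probes, and the brightest probe stood for each gene. They comprise 36 genes of complex I, 4 of complex II, 8 of complex III, 19 of complex IV and 17 of complex V. Of these, 82 were measured above background and tested, each on all 31 arrays, and Cox7b2 and Cox8c were not. The rule goes by names alone, and 3 genes it takes in are known today for other work: Cox4nb is the endoplasmic reticulum membrane complex subunit Emc8, and Atp5s and Atp5sl, now Dmac2l and Dmac2, are not subunits of the synthase.

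RNA of mouse uterus was hybridised to 31 Agilent 1-colour arrays, in 8 groups from 2 mouse lines. Ovaries of all mice were removed at 4 weeks of age. After 3 weeks on normal chow the mice received castor oil under the skin, with 8 µg/kg of 17β-estradiol (E2) or without it (placebo), and uteri were taken 6 h later. In the AF2 line (C57BL6/J background) there were 3 arrays of AF2 KO with E2, 4 of AF2 KO with placebo, 4 of AF2 WT with E2 and 4 of AF2 WT with placebo. In the MISS line (C57BL6/N background) each of MISS KO with E2, MISS KO with placebo, MISS WT with E2 and MISS WT with placebo had 4 arrays. Background on the lines, which the labels do not spell out, is that both mutants make an altered estrogen receptor α rather than none: the AF2 mutant lacks activation function 2 of the hormone-binding domain, through which the receptor recruits coactivators, and the MISS mutant cannot be palmitoylated and is lost from the plasma membrane. The arrays carry separate numbers, but the labels do not say whether each is 1 animal, so p-values measure the spread between these samples.

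Oxidative phosphorylation passes electrons from NADH through complex I, or from succinate through complex II, to complex III and then complex IV, which reduces oxygen. Complexes I, III and IV pump protons out of the mitochondrial matrix, and complex V makes ATP as protons flow back. Complexes I, III, IV and V also hold subunits encoded in mitochondrial DNA, so their assembly draws on both genomes. Estradiol makes the quiescent uterus of an ovariectomised mouse take up water and then grow, with increased RNA and protein synthesis and later cell division, and the receptor in this tissue acts mainly as a nuclear transcription factor.

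Promoter sequences were compared as a feature that the naming rule did not use. A RefSeq table of GRCm38.p6 held promoters for 69 of the 84 genes, each with 250 bases before and 50 bases after the start. Genes that rose with E2 in AF2 WT under both scalings described below account for 4 of those shown here (Ndufa11, Ndufs3, Ndufs7 and Atp5g3). Genes that fell under both account for 2 (Ndufa6 and Cox7a1). These 6 promoters were picked as examples and are not a sample of the members. They lie at chr17:56717512-56717811 (plus strand), chr2:90904672-90904971 (minus), chr10:80249199-80249498 (plus), chr2:73911277-73911576 (minus), chr15:82354242-82354541 (minus) and chr7:30183921-30184220 (plus), and read 5′ to 3′ on the strand of the gene. Capitals mark exact matches, on either strand, to the motifs NRF1 (GCGCATGC), ETS/GABP (CCGGAAGT), YY1 (AAGATGGCG), ERR (TCAAGGTCA) or SP1 (GGGCGG).
Ndufa11: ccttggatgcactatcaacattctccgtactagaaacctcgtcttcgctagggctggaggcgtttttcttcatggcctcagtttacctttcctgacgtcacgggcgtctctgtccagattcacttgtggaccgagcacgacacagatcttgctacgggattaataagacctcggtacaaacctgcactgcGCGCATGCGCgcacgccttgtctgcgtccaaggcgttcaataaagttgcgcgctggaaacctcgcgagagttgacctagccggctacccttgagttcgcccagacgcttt
Ndufs3: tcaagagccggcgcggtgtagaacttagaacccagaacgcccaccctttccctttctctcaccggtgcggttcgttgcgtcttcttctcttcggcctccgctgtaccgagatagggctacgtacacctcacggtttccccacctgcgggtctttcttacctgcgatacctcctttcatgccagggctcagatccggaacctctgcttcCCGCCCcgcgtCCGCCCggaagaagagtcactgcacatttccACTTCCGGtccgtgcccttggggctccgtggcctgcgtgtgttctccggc
Ndufs7: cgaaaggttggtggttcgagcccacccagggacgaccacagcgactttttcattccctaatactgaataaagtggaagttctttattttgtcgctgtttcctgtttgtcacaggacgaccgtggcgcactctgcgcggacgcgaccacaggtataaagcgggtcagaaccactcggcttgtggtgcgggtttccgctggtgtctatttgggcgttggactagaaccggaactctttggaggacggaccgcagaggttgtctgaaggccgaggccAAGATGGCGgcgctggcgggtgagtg
Atp5g3: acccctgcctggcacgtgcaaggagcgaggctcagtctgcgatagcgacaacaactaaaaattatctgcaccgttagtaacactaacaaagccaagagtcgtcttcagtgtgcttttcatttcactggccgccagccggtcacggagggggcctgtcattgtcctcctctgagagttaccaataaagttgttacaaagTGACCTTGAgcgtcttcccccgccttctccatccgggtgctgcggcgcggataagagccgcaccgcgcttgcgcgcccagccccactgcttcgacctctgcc
Ndufa6: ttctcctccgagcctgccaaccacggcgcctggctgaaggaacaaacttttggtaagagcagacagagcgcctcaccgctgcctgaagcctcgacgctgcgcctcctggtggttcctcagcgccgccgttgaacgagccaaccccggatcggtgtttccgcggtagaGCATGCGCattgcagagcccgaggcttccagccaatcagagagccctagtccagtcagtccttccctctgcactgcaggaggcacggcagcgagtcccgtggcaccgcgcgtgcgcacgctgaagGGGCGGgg
Cox7a1: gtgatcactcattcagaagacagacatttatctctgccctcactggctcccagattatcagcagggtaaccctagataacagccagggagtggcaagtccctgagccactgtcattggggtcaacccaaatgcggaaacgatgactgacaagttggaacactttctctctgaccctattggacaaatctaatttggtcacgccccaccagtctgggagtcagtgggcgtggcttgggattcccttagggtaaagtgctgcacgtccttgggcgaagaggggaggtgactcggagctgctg

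Ndufa11 carried NRF1 matches on both strands that overlap, at bases -60 to -53 and -58 to -51 from the start, and Ndufs3 an ETS/GABP match at bases 1 to 8 with SP1 matches at -42 to -37 and -31 to -26. Ndufs7 held the YY1 motif at bases 25 to 33 and Atp5g3 the ERR motif at -52 to -44. Ndufa6, which fell, held NRF1 and SP1 matches too (-83 to -76 and 43 to 48), and Cox7a1, which fell as well, held none of these motifs. Of the promoters not shown, those of Ndufb2, Ndufb7, Ndufs8, Cox5b and Atp5g1, which rose under both scalings, also held none. Among all 69 member promoters, 14.5% (10) held the NRF1 motif, against 2.8% of the 27025 promoters in the table. The YY1 motif stood in 7 of the 69 member promoters and in 1.49% of all, and the ERR motif in 2.9% of member promoters and 0.407% of all. Shares lay closer for ETS/GABP, at 7.25% of member promoters and 4.0% of all, and for SP1, at 40.6% and 35.9%. The estrogen response element (GGTCA, any 3 bases, TGACC) was found in 0 of the 69 windows and in 0.0666% of all, and no match says only that these letters are not in this window. Member promoters had a median GC content of 57.3%, against 52.7% over all. By response, the NRF1 motif was in 4 of the promoters of the 20 members with a promoter that rose under both scalings, and in 1 of those of the 8 that fell under both. In the same 20 and 8 promoters the SP1 motif was in 10 and 5 and the YY1 motif in 2 and 1. ETS/GABP and ERR were each in 1 and 0. These matches are a description and locate no binding site.

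Levels are log2 of the processed signal minus the 75th percentile of the array, so a level of 0 is the signal of the 75th percentile probe. That percentile ranged between 474.7 and 918.4 intensity units, between 61.76% and 77.08% of probes were well above background on an array, and no array had a saturated spot. Precision is limited by the number of arrays. The arrays fill 4 slides, each with 1 array of every group except that slide 2 has none of AF2 KO with E2. Markers of smooth muscle (7 of 7), epithelium (7 of 7) and stroma (7 of 7) were well above background on all 31 arrays. Esr1, the receptor gene, had a mean level of 2.93 ± 0.12 in AF2 KO with E2 (SD, n = 3) and 2.95 ± 0.08 in AF2 KO with placebo (n = 4), against 3.22 ± 0.29 and 3.42 ± 0.13 in AF2 WT with E2 and with placebo (n = 4 each). In the MISS line it had 3.25 ± 0.27 and 3.26 ± 0.09 in MISS KO with E2 and with placebo, against 2.86 ± 0.12 and 3.21 ± 0.11 in MISS WT (n = 4 each). The position of its probe relative to either mutation is not given here, so these levels are not read as a check of genotype. Members had lower levels on the arrays of slide 4 in several groups: the median member level in AF2 WT with E2 was 4.65 on the slide 4 array and 5.07 to 5.13 on the other 3.

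In AF2 WT uterus, most members rose after 6 h of E2 and a small set fell. On the 75th percentile scale, 49 of the 82 tested members rose and 8 fell at a limma adjusted p under 0.05 over all 26901 genes tested, beside 27.6% of all genes called higher and 30% called lower. The median log2 change of the members was 0.44, and that of all genes was -0.06. The rises were modest: 5 of the 82 members rose at least 2-fold and 4 fell at least 2-fold. Of all 26901 genes, 2971 were called at least 2-fold higher and 3880 at least 2-fold lower. Leaving out the 3 names that are not chain subunits gave 48 higher and 6 lower of 79. In bulk tissue, a change in the share of a cell type and a change in RNA per cell cannot be told apart.

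The size of this shift, and the direction of 23 of the 82 changes, depended on the scaling of the arrays. With quantile normalization, which gives every array the same distribution, 26 members rose and 16 fell in AF2 WT, beside 28.1% of all genes higher and 31.1% lower on that scale. The median change was 0.05, and -0.02 over all genes. On this scale the share of members that rose is thus near that of all genes, and the share that fell is below that of all genes. The authors' deposited matrix, whose array medians lie between 7.558 and 7.564, gave the same counts, 26 higher and 16 lower, and a median of 0.05. Under both the 75th percentile and the quantile scaling, 26 members rose and 8 fell, and 2 (Ndufa7 and Sdha) were called in opposite directions. Most member probes are bright: 59 of the 82 lie in the brightest 10% of tested genes, a bin that spans mean levels of 3.72 to 9.61. The highest mean level of a member was 7.494. In that bin the median change of all genes in AF2 WT was 0.17 on the 75th percentile scale and -0.08 after quantile normalization. Of all genes there, 44.1% were called higher and 13.3% lower on the 75th percentile scale, and of the 59 members 34 were higher and 3 lower. The members named below as rising or falling are on the 75th percentile scale, with the quantile value given beside the main ones.

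**Figure D1:**
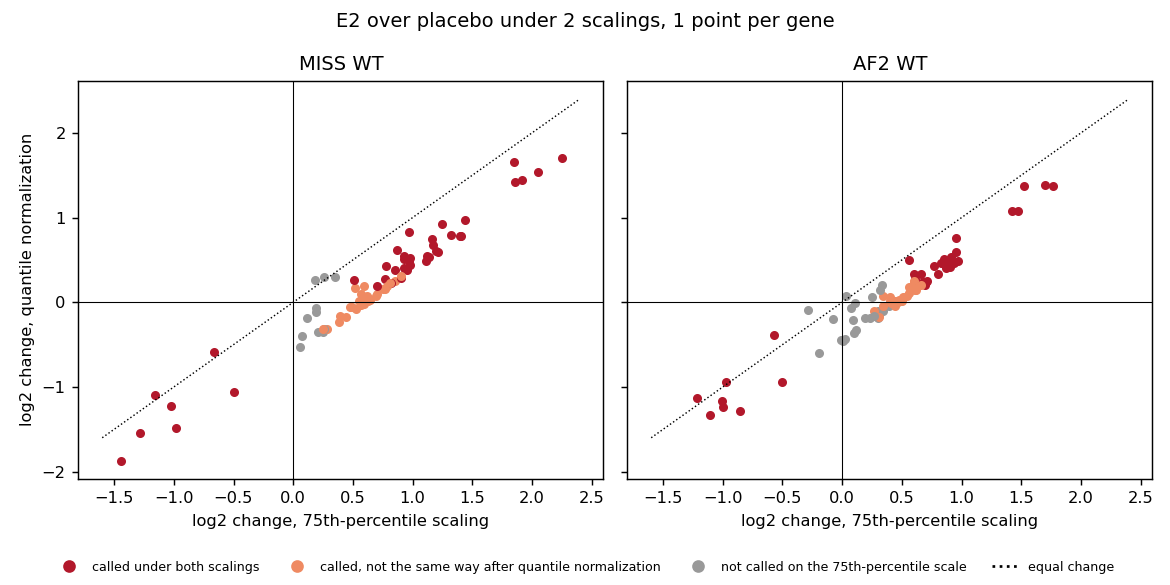
Log2 change with E2 over placebo of each of the 82 members in MISS WT (left) and AF2 WT (right), on the 75th percentile scale (x axis) and after quantile normalization (y axis). Members that rose lie below the dotted line of equal change. In the AF2 WT panel the 8 members that fell there under both scalings lie at the lower left. Orange points were called on the 75th percentile scale and not called the same way after quantile normalization.

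**Figure D2:**
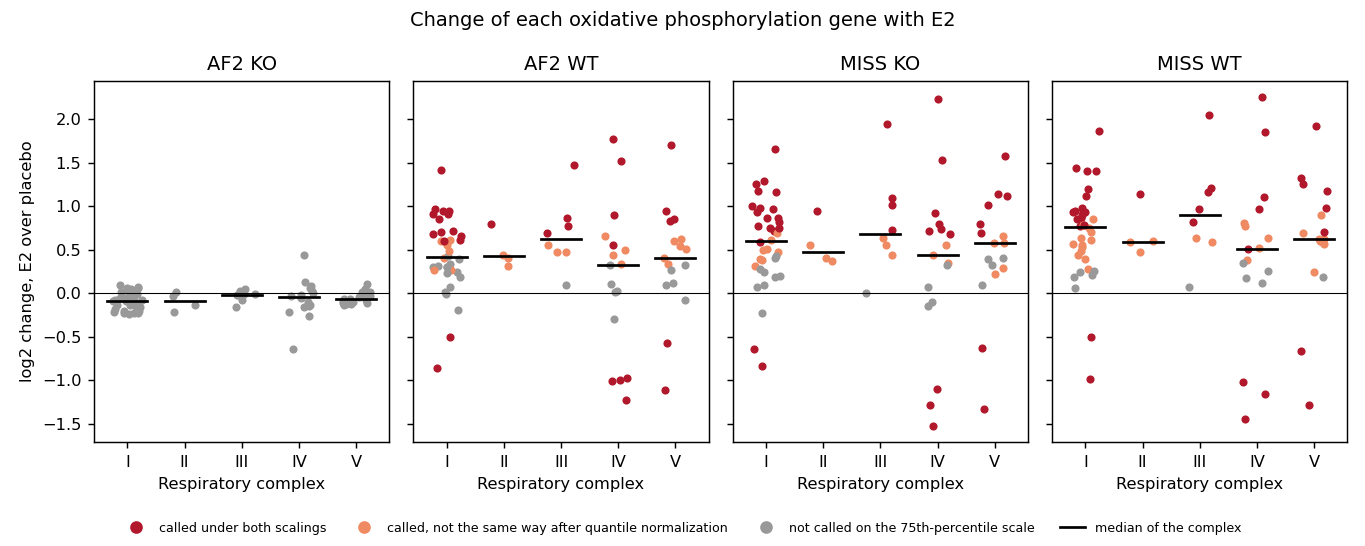
Log2 change with E2 over placebo of every tested member (1 point each), by complex, in AF2 KO, AF2 WT, MISS KO and MISS WT, with bars at the median of the complex. Medians of all members are -0.07 in AF2 KO, 0.44 in AF2 WT, 0.57 in MISS KO and 0.64 in MISS WT.

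Complex I, the NADH dehydrogenase, had 20 members higher and 2 lower of 36 in AF2 WT, with a median change of 0.42. Its 7 core subunits, which carry the flavin and iron-sulphur clusters and include Ndufs1, Ndufv1 and Ndufv2, all rose, by 0.49 (Ndufv1) to 0.91 (Ndufv2) on the log2 scale. Of these 7, 6 were also higher after quantile normalization, where the median over the 7 was 0.25. Among the 28 accessory subunits, 12 rose and 2 fell, and Ndufa4, named for complex I and since assigned to complex IV, rose by 0.40. With quantile normalization complex I had 13 higher and 6 lower.

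Ndufa11, an accessory subunit of the membrane arm, had levels of 3.73, 3.8, 3.7 and 3.07 in AF2 WT with E2, against 2.3, 2.1, 2.08 and 2.13 with placebo. The groups do not overlap, and the array of slide 4 is the lowest of the E2 group. The change was 1.42 ± 0.16 (log2, SE; adjusted p = 3.12e-08) and 1.08 after quantile normalization. Ndufa12, an accessory subunit of the peripheral arm, had 5.45, 5.57, 5.4 and 4.95 with E2 and 4.54, 4.48, 4.32 and 4.17 with placebo in AF2 WT. All 4 E2 arrays lie above all 4 placebo arrays, with a change of 0.97 ± 0.14 (adjusted p = 7.11e-07; 0.49 after quantile normalization).

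Ndufa6, an accessory subunit of the LYR family that binds the mitochondrial acyl carrier protein, went the other way. It had 3.79, 3.85, 3.88 and 3.69 with E2 and 4.74, 4.73, 4.74 and 4.43 with placebo in AF2 WT, a fall by 0.86 ± 0.09 (log2, SE; adjusted p = 3.97e-09) with no overlap. Ndufv3, an accessory subunit of the NADH-binding module, had 5.08, 5.09, 4.91 and 4.33 with E2 and 5.5, 5.37, 5.36 and 5.19 with placebo. It fell by 0.50 ± 0.19 (adjusted p = 0.025), but the call was lost with median scaling (adjusted p = 0.184), without AF2 WT placebo array 1 (0.0662) and without AF2 WT E2 array 4 (0.14), and its 3 probes gave changes spread over 0.87 and of both signs.

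Complex II, succinate dehydrogenase, which also works in the tricarboxylic acid cycle, had 4 of 4 members higher in AF2 WT on the 75th percentile scale, with a median change of 0.42, and 1 higher and 1 lower after quantile normalization. Sdhb, the iron-sulphur subunit, had 5.67, 5.57, 5.55 and 5.0 with E2 and 4.82, 4.68, 4.69 and 4.41 with placebo. The groups do not overlap, and the change was 0.80 ± 0.17 (log2, SE; adjusted p = 0.00025; 0.34 after quantile normalization). Sdhd, a membrane anchor, had 4.54, 4.57, 4.67 and 4.32 with E2 and 4.18, 4.14, 4.15 and 3.87 with placebo, a change of 0.44 ± 0.10 (adjusted p = 0.000324). Its direction turned after quantile normalization, to -0.04 (adjusted p = 0.632). Sdha, the flavoprotein, changed by 0.31 ± 0.06 on the 75th percentile scale and by -0.17 after quantile normalization, called in each, so complex II as a whole has no settled direction in AF2 WT.

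Complex III, ubiquinol-cytochrome c reductase, had 7 members higher and 0 lower of 8 in AF2 WT (7 at an unadjusted limma p under 0.05), with a median change of 0.62, and 4 higher and 0 lower after quantile normalization. Uqcrq, a small subunit beside cytochrome b, had 6.28, 6.09, 6.18 and 5.43 with E2 and 4.7, 4.54, 4.59 and 4.26 with placebo. Every E2 array lies above every placebo array, and the change was 1.47 ± 0.18 (log2, SE; adjusted p = 9.83e-08; 1.08 after quantile normalization). Uqcrb, which binds ubiquinone, had 5.64, 5.54, 5.73 and 4.84 with E2 and 4.76, 4.41, 4.78 and 4.31 with placebo, a change of 0.87 ± 0.17 (adjusted p = 7.81e-05). The core proteins Uqcrc1 and Uqcrc2 rose by 0.77 and 0.69 and the Rieske iron-sulphur protein Uqcrfs1 by 0.56. The hinge protein Uqcrh was not called, at 0.09 ± 0.17 with a 95% interval of -0.27 to 0.44.

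Complex IV, cytochrome c oxidase, had calls in both directions: 8 members were higher and 4 lower of 17 in AF2 WT, with a median change of 0.33, and 4 higher and 5 lower after quantile normalization. Cox5a, a nuclear-encoded subunit on the matrix side, had 6.11, 6.15, 6.02 and 5.87 with E2 and 4.36, 4.28, 4.21 and 4.21 with placebo. The groups are more than 1 log2 unit apart, and the change was 1.77 ± 0.11 (log2, SE; 3.42-fold, adjusted p = 1.83e-13; 1.37 after quantile normalization). Its probe lies on chromosome 9, between 57379593 and 57380141 (mm9). The unrelated Cox4nb had 1.95, 2.1, 1.93 and 1.71 with E2 and 0.47, 0.44, 0.37 and 0.34 with placebo, a change of 1.52 ± 0.09.

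Cox7a2l, known for joining complexes III and IV into supercomplexes rather than as an enzyme subunit, had 6.18, 5.86, 6.04 and 5.88 with E2 and 7.13, 7.14, 7.02 and 6.68 with placebo in AF2 WT. It fell by 1.0 ± 0.13 (log2, SE; adjusted p = 2.49e-07), its 3 probes gave changes within 0.01 of each other, and the quantile value was -1.24. No E2 array reached a placebo array.

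Several complex IV subunits exist as a common isoform and one known from heart, skeletal muscle, testis or lung. Cox7a1, the heart and muscle isoform, had -1.49, -1.28, -1.57 and -1.8 with E2 and -0.19, -0.30, -0.31 and -0.46 with placebo in AF2 WT, a fall by 1.22 ± 0.13 (adjusted p = 5.37e-09; -1.13 after quantile normalization). Its common partner Cox7a2 had 4.51, 4.47, 4.52 and 3.94 with E2 and 3.8, 3.82, 3.79 and 3.38 with placebo, a change of 0.66 ± 0.17 that was not called after quantile normalization (0.21, adjusted p = 0.173). On the 75th percentile scale the isoforms were called in opposite directions. Cox6b2, the testis isoform, had 1.17, 1.17, 0.95 and 0.90 with E2 and 2.26, 1.94, 2.16 and 1.86 with placebo, a fall by 1.01 ± 0.09 (adjusted p = 2.57e-10) with no overlap. Its common partner Cox6b1 had 2.52, 2.5, 2.39 and 2.18 with E2 and 2.14, 2.15, 1.89 and 2.03 with placebo, a change of 0.34 ± 0.10, and 0.07 (adjusted p = 0.446) after quantile normalization.

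Cox8b, the heart and muscle isoform, had -0.23, -0.69, -0.38 and -1.15 with E2 and 0.42, 0.83, 0.06 and 0.12 with placebo in AF2 WT. All E2 arrays lie below all placebo arrays, with a fall by 0.97 ± 0.30 (adjusted p = 0.00638). Its common partner Cox8a had 7.43, 7.3, 7.21 and 6.77 with E2 and 7.1, 6.9, 6.86 and 6.51 with placebo and was not called (0.33 ± 0.16, adjusted p = 0.0828), but passed the test with slide as a block (6.16e-05), with median scaling (0.00265), with the mean of its probes (0.0443), and without AF2 WT placebo array 1 (0.043) or AF2 WT E2 array 4 (0.0169). Cox8b is also known from brown fat, and fat markers varied between arrays: Adipoq had 1.37, -2.56, 1.99 and -1.33 with E2 and -1.22, 1.53, -1.37 and 1.89 with placebo. The 6 adipocyte markers summed to between 1.31 and 21.4 in AF2 WT with E2 and between 2.50 and 20.5 in AF2 WT with placebo, in multiples of the 75th percentile signal, and 0 of 6 were called. Among 4 brown fat markers, Ucp1 and Elovl3 were too dim to test. The other 2 were called in opposite directions in AF2 WT: Cidea changed by -2.11 ± 0.19 (limma adjusted p = 2.99e-10) and Dio2 by 2.58 ± 0.23 (3.62e-10). Of 7 skeletal muscle markers 4 (Ckm, Myh1, Myh4 and Mylpf) were too dim to test and 3 were tested, of which Tnnt3 rose and Actn3 fell in AF2 WT. The part of fat or muscle in the values of these isoforms was not tested.

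Cox6a2, the heart and muscle isoform, had -2.86, -3.31, -2.54 and -3.29 with E2 and -2.67, -2.99, -2.54 and -2.65 with placebo in AF2 WT and was not called (-0.29 ± 0.28, adjusted p = 0.408). Its partner Cox6a1 had 8.15, 8.02, 7.98 and 7.33 with E2 and 7.57, 7.41, 7.32 and 6.92 with placebo, a change of 0.56 ± 0.22 (adjusted p = 0.0294) that was no longer called without AF2 WT E2 array 1, 2 or 3 or without AF2 WT placebo array 4 (adjusted p of 0.0664 to 0.113). Cox4i2, the lung isoform known to respond to low oxygen, had -0.43, -0.29, -0.24 and -0.41 with E2 and -0.09, -0.72, -0.29 and -0.40 with placebo. Its common partner Cox4i1 had 6.92, 7.0, 6.9 and 6.51 with E2 and 6.92, 6.76, 6.68 and 6.52 with placebo. Neither was called: the fitted difference was 0.03 for Cox4i2 (95% interval -0.20 to 0.27) and 0.11 for Cox4i1 (-0.15 to 0.38). With median scaling Cox4i1 passed the test. Cox7b, whose isoform Cox7b2 was not above background, had 5.07, 5.15, 4.99 and 4.61 with E2 and 4.53, 4.6, 4.46 and 4.23 with placebo, a change of 0.50 ± 0.13 and 0.02 after quantile normalization.

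**Figure D3:**
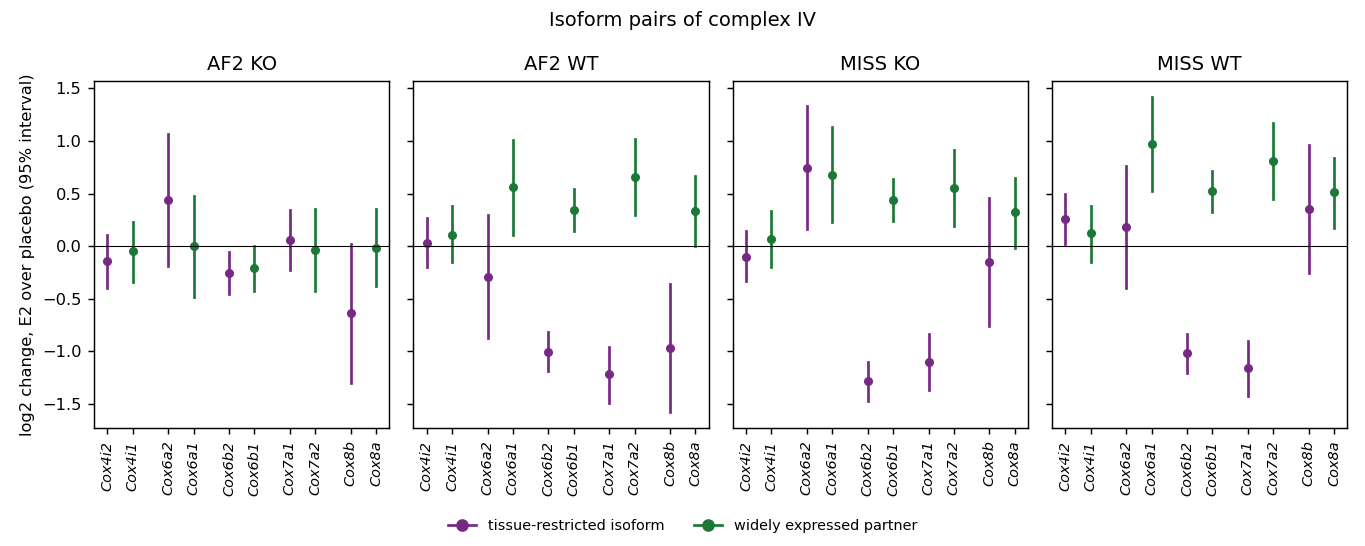
Log2 change with E2 over placebo (y axis, points with 95% intervals) of 5 tissue-restricted complex IV isoforms (purple) and their widely expressed partners (green), in AF2 KO, AF2 WT, MISS KO and MISS WT. Cox7a1 and Cox6b2 lie below 0 and their partners Cox7a2 and Cox6b1 above 0 in AF2 WT, MISS KO and MISS WT, and Cox8b lies below 0 in AF2 WT with an interval that spans 0 in the other 3.

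Complex V, the ATP synthase, had 10 members higher and 2 lower of 17 in AF2 WT, with a median change of 0.40, and 4 higher and 4 lower after quantile normalization. Atp5g1, which encodes the proton-carrying c subunit, had 6.41, 6.42, 6.55 and 5.89 with E2 and 4.81, 4.48, 4.63 and 4.55 with placebo. The groups do not overlap, and the change was 1.7 ± 0.12 (log2, SE; 3.25-fold, adjusted p = 4.95e-12; 1.38 after quantile normalization). Its 2 probes differed in size by 1.35, both called higher in AF2 WT: the dimmer one gave 0.35 ± 0.14 there, 0.04 ± 0.14 in MISS KO, where it was not called, and 0.38 ± 0.14 in MISS WT. Atp5g3 and Atp5g2 encode the same mature c subunit: Atp5g3 rose by 0.85 ± 0.14, and Atp5g2 was not called (-0.08 ± 0.15, 95% interval -0.39 to 0.23).

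Atp5b, the catalytic β subunit, had 7.0, 7.04, 7.04 and 6.68 with E2 and 6.07, 5.96, 5.99 and 5.97 with placebo in AF2 WT, a change of 0.95 ± 0.09 (adjusted p = 6.04e-10; 0.76 after quantile normalization) with no overlap. The α subunit Atp5a1 rose by 0.34. Of the central stalk, Atp5d and Atp5e rose (0.62 and 0.40) and Atp5c1 was not called (0.12). In the peripheral stalk Atp5f1 rose by 0.83 and Atp5o by 0.60, with Atp5h (0.32) and Atp5j (0.10) not called.

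Both members that fell under complex V are the names known today as other genes. Atp5sl had 1.54, 1.38, 1.73 and 1.43 with E2 and 2.64, 2.73, 2.68 and 2.49 with placebo, a fall by 1.11 ± 0.09 (adjusted p = 6.28e-11). Atp5s had -3.06, -3.41, -3.24 and -2.68 with E2 and -2.61, -2.37, -2.77 and -2.37 with placebo, a fall by 0.57 ± 0.14 (adjusted p = 0.000998), and these groups overlap. No subunit proper of complex V was called lower on the 75th percentile scale, and Atp5c1 and Atp5j were called lower only after quantile normalization.

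In AF2 KO, 0 members were called higher and 0 lower with E2 (limma; 6 had an unadjusted p under 0.05), beside 3.13% of all genes higher and 0.558% lower. The median change was -0.07, and 0.04 over all genes. For 80 of the 82 members the 95% interval of the change lay within 2-fold in either direction, beside 21673 of all 26901 genes. The 2 exceptions among the members were Cox8b (-1.3 to 0.02) and Cox6a2 (-0.19 to 1.07). With median scaling, which moved the change of all genes by -0.18, 16 members were called lower with a median of -0.25, and that of all genes was -0.13. The share of all genes called with median scaling is not given here. Cox5a had 4.31, 4.26 and 4.14 in AF2 KO with E2, against 4.19, 4.2, 4.15 and 4.07 with placebo, where the groups overlap. Ndufa6 had 4.82, 4.59 and 4.62 with E2 and 4.66, 4.65, 4.56 and 4.42 with placebo, also overlapping. Ndufs1, the largest core subunit of complex I, had 3.75, 3.7 and 3.6 with E2 and 3.9, 3.97, 3.81 and 3.87 with placebo. Its E2 arrays lie below its placebo arrays, at a fitted difference of -0.21 ± 0.08 (adjusted p = 0.144), and it was the 1 member called lower with slide as a block. In AF2 WT Ndufs1 had 4.55, 4.58, 4.39 and 4.47 with E2 and 3.8, 3.81, 3.69 and 3.86 with placebo.

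The difference between the responses, KO minus WT within the AF2 line, tested this directly. It was called lower for 43 members and higher for 5, beside 23% of all genes lower and 29% higher, with a median of -0.50 against 0.18 over all genes. These 48 are all among the 57 members called in AF2 WT, and in each the response was smaller in size in AF2 KO. The difference holds the same AF2 WT arrays as those 57 calls, so this overlap is partly built in and is no separate support. With quantile normalization the counts were 26 lower and 9 higher, beside 23.4% of all genes lower and 26.3% higher, with 25 lower and 5 higher under both scalings. With median scaling, which moved the difference of all genes by -0.39, 65 were lower and the median was -0.89, where that of all genes was -0.21. The share of all genes called on this scale is not given here. The 5 called higher under both scalings are Ndufa6, Cox6b2, Cox7a1, Cox7a2l and Atp5sl, members that fell in AF2 WT.

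The 5 most negative differences were those of the 5 members that rose at least 2-fold in AF2 WT, whose arrays enter both values. Atp5g1 had 4.67, 4.57 and 4.52 in AF2 KO with E2 and 4.7, 4.88, 4.7 and 4.55 with placebo, and the response differed from that in AF2 WT by -1.82 ± 0.18 (log2, SE; adjusted p = 5.36e-09). For Cox5a the difference was -1.69 ± 0.16 and for Cox4nb -1.68 ± 0.13, where Cox4nb had 0.46, 0.34 and 0.20 in AF2 KO with E2 and 0.58, 0.51, 0.43 and 0.46 with placebo. In these 3 the AF2 KO levels with E2 do not reach the lowest AF2 WT level with E2. Ndufa11 had 2.08, 2.0 and 1.84 with E2 and 2.26, 2.45, 2.13 and 1.97 with placebo in AF2 KO, a difference of -1.65 ± 0.24. Uqcrq had 4.53, 4.31 and 4.17 and 4.5, 4.51, 4.32 and 4.06, a difference of -1.49 ± 0.27. Ndufb6, a membrane-arm subunit of complex I, had 2.47, 2.67 and 2.32 with E2 and 2.8, 2.68, 2.77 and 2.6 with placebo in AF2 KO, and 3.52, 3.68, 3.7 and 3.44 and 2.68, 2.75, 2.47 and 2.63 in AF2 WT, a difference of -1.18 ± 0.15.

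In the other direction, Cox7a1 had 0.21, -0.28 and -0.17 with E2 and 0.06, -0.09, -0.21 and -0.29 with placebo in AF2 KO. Its response differed from that in AF2 WT by 1.28 ± 0.19 (adjusted p = 2.88e-06), and those of Cox7a2l, Atp5sl, Ndufa6 and Cox6b2 by 1.13, 1.09, 0.96 and 0.75. Cox7a2l had 7.42, 6.95 and 7.0 with E2 and 7.13, 7.2, 6.94 and 6.72 with placebo in AF2 KO. Atp5sl had 2.48, 2.71 and 2.69 and 2.72, 2.74, 2.7 and 2.43 there. In both, the E2 and placebo arrays of AF2 KO overlap. Cox6b2 had 1.71, 1.73 and 1.56 with E2 and 2.0, 1.95, 1.88 and 1.88 with placebo in AF2 KO, where its E2 arrays lie below its placebo arrays, and the change was -0.26 ± 0.10 (adjusted p = 0.151). The difference is computed against the same AF2 WT arrays as the response above.

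**Figure D4:**
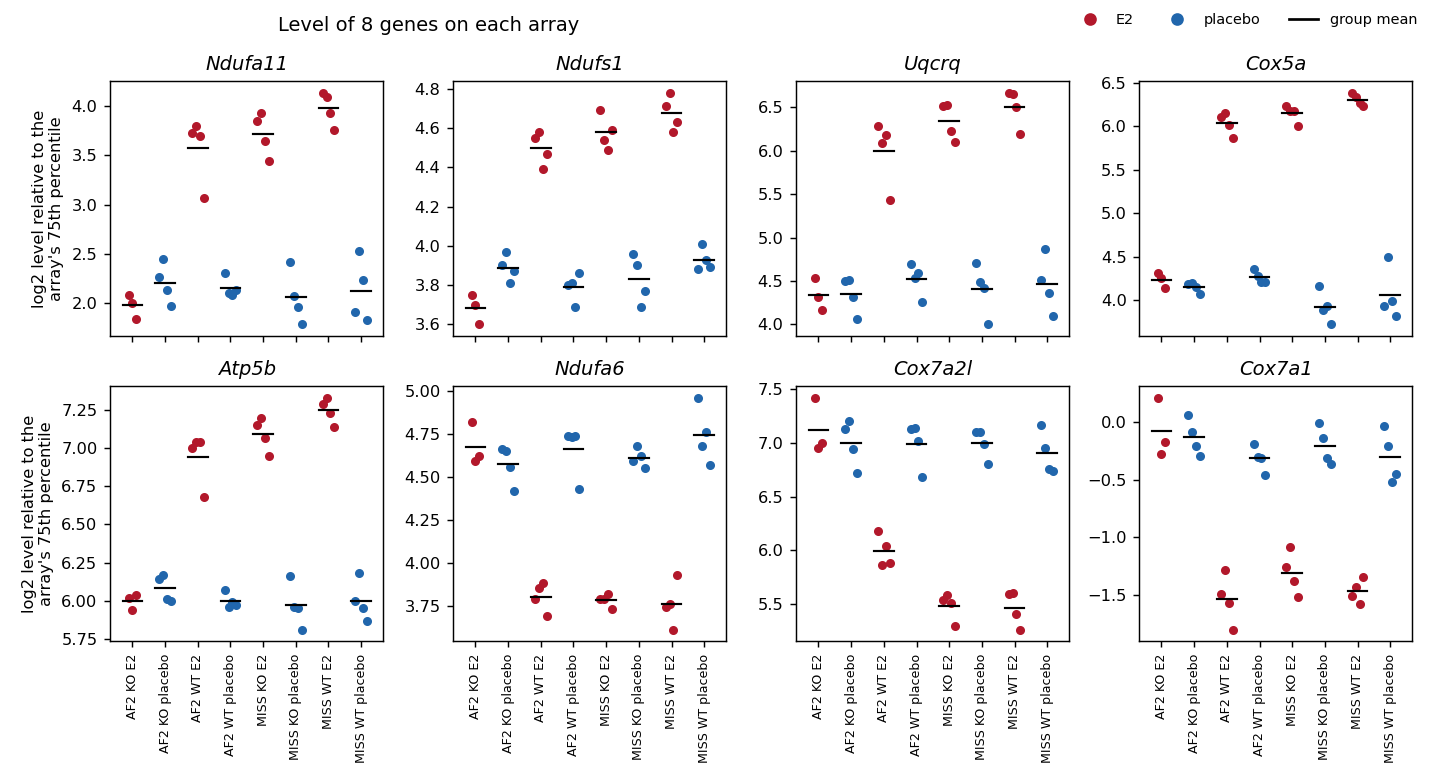
Level on each array (y axis, log2 relative to the 75th percentile of the array; lines are group means) of 8 members in the 8 groups, E2 in red and placebo in blue. E2 and placebo arrays separate for all 8 in AF2 WT, MISS KO and MISS WT, and in AF2 KO they overlap for each except Ndufs1, whose E2 arrays (3.60 to 3.75) lie below its placebo arrays (3.81 to 3.97).

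In the MISS line both genotypes responded. In MISS KO 57 members rose and 7 fell, beside 30.1% of all genes higher and 27.2% lower, with a median of 0.57 against 0.03 over all genes. In MISS WT 64 rose and 7 fell, beside 35.1% higher and 27.1% lower, with a median of 0.64 against 0.16. With quantile normalization 35 rose and 11 fell in MISS KO (median 0.15), beside 28.4% of all genes higher and 29.7% lower. In MISS WT 34 rose and 14 fell (0.18), beside 31.4% higher and 31.6% lower. The sign of the change turned between the scalings for 22 members in MISS KO and 18 in MISS WT. Ndufa7, Ndufv1 and Atp5j in MISS WT and Atp5j in MISS KO were called in opposite directions by the scalings. In the brightest 10% of genes, 47.2% of all genes in MISS KO and 51.4% in MISS WT were called higher, and 40 and 48 of the 59 members there.

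Cox5a had 6.24, 6.18, 6.18 and 6.01 in MISS KO with E2, against 4.16, 3.89, 3.93 and 3.72 with placebo, a change of 2.23 ± 0.11. In MISS WT it had 6.39, 6.34, 6.27 and 6.24 with E2 and 3.93, 4.5, 3.99 and 3.82 with placebo, a change of 2.25 ± 0.11. The E2 arrays of both genotypes lie well above the placebo arrays. Atp5g1 rose by 1.58 ± 0.12 in MISS KO and 1.92 ± 0.12 in MISS WT, Uqcrq by 1.94 ± 0.18 and 2.05 ± 0.18, and Ndufa11 by 1.66 ± 0.16 and 1.86 ± 0.16. Cox7a2l fell by 1.52 ± 0.13 in MISS KO and by 1.44 ± 0.13 in MISS WT. In all, 49 members were called higher and 7 lower in each of AF2 WT, MISS KO and MISS WT: the 7 are Ndufa6, Ndufv3, Cox6b2, Cox7a1, Cox7a2l, Atp5s and Atp5sl. Of all genes, 23.5% were higher and 21% lower in all 3. With quantile normalization 24 members were higher and 9 lower in all 3, beside 21.3% and 23.7% of all genes. The AF2 and MISS responses share no arrays. No member was called in opposite directions in any 2 of these 3 responses on the 75th percentile scale. On that scale 9 members were called in none of the 3: Ndufa3, Ndufa13, Ndufb3, Ndufb11, Ndufc2, Uqcrh, Cox4i1, Cox4i2 and Atp5g2. This list depended on the processing. After quantile normalization Ndufb11 was called lower in all 3, and Ndufa3 and Uqcrh in MISS KO and MISS WT. Ndufc2 was lower in AF2 WT and MISS WT, Ndufb3 lower in AF2 WT, and Cox4i2 higher in MISS WT. With slide as a block, all of the 9 except Uqcrh and Cox4i1 were called in some of the 3 responses.

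The MISS KO response minus the MISS WT response was called for 0 members in either direction (limma; 4 had an unadjusted p under 0.05), beside 0.245% of all genes higher and 0.658% lower. The median was -0.11, and -0.07 over all genes. The 95% interval lay within 2-fold for 80 of 82 members, beside 19214 of all 26901 genes. The exceptions among the members were Cox8b (-1.36 to 0.37) and Cox6a2 (-0.26 to 1.39). With slide as a block 3 members were called lower (Ndufb8, Cox4nb and Atp5a1), at -0.38 for Ndufb8 and -0.32 for Cox4nb in the fit without the block. These responses come from separate placebo groups.

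Within each slide, 1 array of each group can be set against the others. The median member change with E2 in AF2 KO was -0.06, -0.07 and 0.03 on slides 1, 3 and 4. In AF2 WT it was 0.45, 0.47, 0.51 and 0.32 on slides 1 to 4, in MISS KO 0.51, 0.60, 0.48 and 0.59, and in MISS WT 0.68, 0.56, 0.65 and 0.79. Over all genes the median on the same slides was 0.07, 0.02 and 0.06 in AF2 KO. It was -0.08, 0.01, -0.06 and -0.07 in AF2 WT, 0, 0.06, 0.02 and 0.08 in MISS KO, and 0.16, 0.21, 0.18 and 0.05 in MISS WT. The KO minus WT difference of the AF2 line was -0.53, -0.51 and -0.32 on slides 1, 3 and 4, and 0.23, 0.12 and 0.17 over all genes. For 58 of the 82 members it was negative on all 3, and the same count over all genes is not given here. With slide as a block the calls of all directions were 71 in AF2 WT (57 without), 64 in the AF2 difference (48 without), 74 in MISS KO (64 without) and 77 in MISS WT (71 without). The share of all genes called with the block is not given here, so these member counts cannot be set against it.

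Genotypes were also compared without E2. For AF2 KO over AF2 WT under placebo, 2 members were higher and 1 lower, beside 3.38% of all genes higher and 5.68% lower, with a median of 0.01. Ndufc2, a membrane-arm subunit of complex I, had 4.85, 4.66, 5.14 and 4.76 in AF2 KO and 4.69, 4.35, 4.62 and 4.23 in AF2 WT, a difference of 0.38 ± 0.12 (log2, SE; adjusted p = 0.0441). This call was lost without AF2 KO placebo array 1, 3 or 4 and without AF2 WT placebo array 2 or 4 (adjusted p of 0.055 to 0.165). Cox4i2 had 0.10, -0.04, 0.16 and 0.20 in AF2 KO and -0.09, -0.72, -0.29 and -0.40 in AF2 WT, a difference of 0.48 ± 0.11 (adjusted p = 0.0076). Cox6a2 had -3.79, -4.31, -3.64 and -4.2 in AF2 KO and -2.67, -2.99, -2.54 and -2.65 in AF2 WT, a difference of -1.27 ± 0.28 (adjusted p = 0.00409) with no overlap. All 3 were called after quantile normalization too. With median scaling, which moved all genes by 0.18, 15 members were higher, with a median of 0.19 against 0.13 over all genes. The share of all genes called higher with that scaling is not given here. The 6 adipocyte markers had a median difference of 1.38 in the same comparison, with 0 of 6 called, and the 3 tested skeletal muscle markers 0.31, with 1 called higher. The part of fat or muscle in the Cox6a2 value was not tested.

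For MISS KO over MISS WT under placebo, 0 members were called (limma; 6 had an unadjusted p under 0.05), beside 0.42% of all genes higher and 0.472% lower, with a median of -0.03. Quantile normalization gave 1 lower call, Cox7c. For MISS WT over AF2 WT under placebo, which sets the 2 lines and their C57BL6/N and C57BL6/J backgrounds side by side, 1 member was higher and 0 lower, beside 3.04% of all genes higher and 8.62% lower. Of the inner membrane carriers, Nnt, the nicotinamide nucleotide transhydrogenase whose gene is known to carry a deletion in C57BL/6J mice, was higher by 1.04 ± 0.09 in MISS WT (adjusted p = 4.5e-08).

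The MISS WT response minus the AF2 WT response was called higher for 8 members and lower for 0, beside 6.38% of all genes higher and 3.1% lower, with a median of 0.26 against 0.11 over all genes. The 8 are Ndufa8 (0.62), Ndufb6 (0.49), Ndufb8 (0.59), Sdha (0.28), Uqcrc1 (0.40), Cox5a (0.48), Cox8b (1.32) and Atp5f1 (0.34). The count moved with the processing: 2 higher and 1 lower with quantile normalization (3.88% and 4.06% of all genes), 0 and 1 with median scaling, 37 and 1 with slide as a block, and 2 to 9 higher as single arrays were left out. Among these alternatives, the share of all genes is given for quantile normalization only. Ndufa8 and Ndufb8, accessory subunits of complex I, were called under both the 75th percentile and the quantile scaling. Ndufb8 had 5.91, 6.03, 5.85 and 5.91 with E2 and 4.69, 4.93, 4.71 and 4.56 with placebo in MISS WT, against 5.47, 5.61, 5.32 and 5.05 and 4.94, 4.7, 4.66 and 4.7 in AF2 WT. Cox8b had 0.92, 1.04, 0.32 and 0.42 with E2 and 0.45, 0.76, 0.39 and -0.27 with placebo in MISS WT, where the groups overlap. Line, background strain and colony cannot be told apart in this comparison.

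Genes that assemble or feed the chain were read from lists of the pathway. Beside the counts of these lists stand the shares of all genes called: in AF2 WT 27.6% higher and 30% lower (28.1% and 31.1% after quantile normalization), in AF2 KO 3.13% and 0.558%, and in the AF2 KO minus WT difference 29% and 23%. Assembly factors had 25 higher and 8 lower of 46 in AF2 WT, with a median of 0.38, and 22 and 10 after quantile normalization (0.34). Ndufaf4, which builds complex I, rose by 2.39 ± 0.15, Sco2, which delivers copper to complex IV, by 1.98 ± 0.12, and Uqcc2, which helps make cytochrome b, by 1.51 ± 0.10. Sdhaf4, Sdhaf3 and Cox20 fell by 1.42, 0.75 and 0.70. In AF2 KO 1 of the 46 was higher and 1 lower, and the KO minus WT difference was lower for 24 and higher for 5.

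Mitochondrial protein import and chaperones had 19 higher and 0 lower of 21 in AF2 WT, with a median of 1.27, and 18 and 2 after quantile normalization (0.93). Timm8a1 and Timm10, small chaperones of the intermembrane space, rose by 2.52 ± 0.07 and 2.25 ± 0.11, and Tomm40, the outer membrane channel, by 2.14 ± 0.09. In AF2 KO 0 of the 21 were called, and the KO minus WT difference was lower for 18. Regulators of mitochondrial genes had 11 higher and 3 lower of 19, with a median of 0.48 (10 and 3, 0.51 after quantile normalization). Pprc1, a coactivator related to PGC-1, rose by 2.19 ± 0.10, the mitochondrial RNA polymerase Polrmt by 1.23 ± 0.08, and the transcription factor Nrf1 by 1.19 ± 0.09. Ppargc1a, which encodes PGC-1α, fell by 3.01 ± 0.19, Polg2 by 1.45 and Tfb1m by 1.26.

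Tricarboxylic acid cycle genes had 13 higher and 1 lower of 18 in AF2 WT, with a median of 0.49, and 8 and 2 after quantile normalization (0.12). Idh3a rose by 1.79 ± 0.10, Dlst by 1.22 ± 0.13 and citrate synthase (Cs) by 1.08 ± 0.14, and Idh2, the NADP-dependent isocitrate dehydrogenase, fell by 0.90 ± 0.13. Other subunits and electron carriers had 8 higher and 3 lower of 18 (7 and 3 after quantile normalization): cytochrome c (Cycs) rose by 2.68 ± 0.12, Ndufab1, the acyl carrier protein, by 1.90 ± 0.14 and Pdss1, of ubiquinone synthesis, by 1.59 ± 0.08. Coq9, Atpif1 and Coq2 fell by 0.77, 0.33 and 0.29. Inner membrane carriers had 3 higher and 3 lower of 6, with Slc25a5, an ADP/ATP carrier, at 2.51 ± 0.16, Slc25a3 at 0.87 and Slc25a4 at 0.39. Ucp3, Ucp2 and Nnt fell by 0.57, 0.54 and 0.50.

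Of the 13 subunits encoded in mitochondrial DNA, in AF2 WT 2 were higher (mt-Nd1 at 0.43 ± 0.14 and mt-Nd2 at 0.28 ± 0.08) and 0 lower, with a median of 0.07, and after quantile normalization 0 were higher and 3 lower (-0.15). In AF2 KO 0 were higher and 1 lower (mt-Atp8), with a median of -0.18, and 0 and 3 after quantile normalization (-0.28). The share of all genes called in AF2 KO on the quantile scale is not given here. The KO minus WT difference was lower for 5 of 13, with a median of -0.21, and for 1 after quantile normalization. In MISS KO 2 were higher and 0 lower, and in MISS WT 1 higher and 1 lower, which became 0 and 4 in MISS KO and 0 and 5 in MISS WT after quantile normalization. The difference between the nuclear and the mitochondrial list was not tested.

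**Figure D5:**
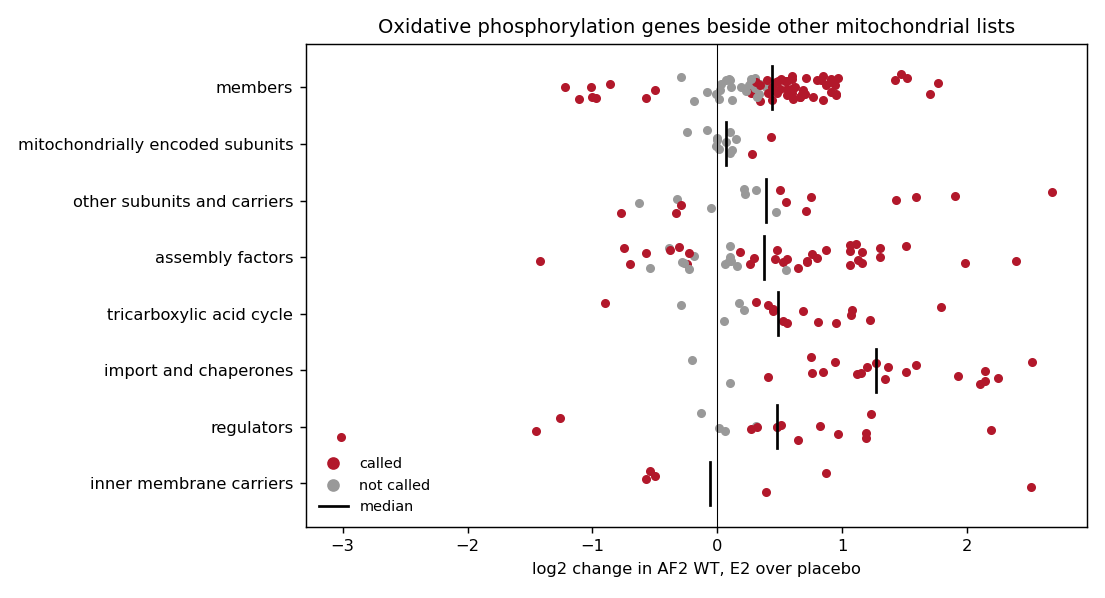
Log2 change in AF2 WT with E2 over placebo (x axis) of each tested gene of the members and of 7 other mitochondrial lists, with called genes in red and a bar at the median of each list. The median is 1.27 for import and chaperones, 0.44 for the members and 0.07 for the mitochondrially encoded subunits, and Ppargc1a is the point at -3.01.

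Cell type markers moved as well. Of 7 stromal markers 6 fell in AF2 WT with E2 (median -0.76), and they summed to 284 to 357 with E2 and 494 to 586 with placebo, in multiples of the 75th percentile signal. In AF2 KO 2 of the 7 fell, with sums of 451 to 504 with E2 and 546 to 652 with placebo. In the MISS line 3 of the 7 fell in each genotype, and after quantile normalization 4 in MISS KO and 5 in MISS WT. Smooth muscle markers had 0 higher and 1 lower of 7 in AF2 WT, with sums of 803 to 1166 with E2 and 736 to 1042 with placebo, and epithelial markers 3 higher and 1 lower of 7 (0 and 2 after quantile normalization), with sums of 129 to 160 with E2 and 134 to 176 with placebo. In MISS KO 4 smooth muscle markers were higher and 1 lower of 7 (median 0.55), with sums of 878 to 1160 with E2 and 529 to 796 with placebo. In MISS WT 5 were higher and 1 lower (0.60), with sums of 940 to 1353 with E2 and 599 to 1328 with placebo. Macrophage markers had 1 higher and 3 lower of 6 in AF2 WT and in MISS KO, and 0 higher and 3 lower in MISS WT. Red blood cell markers were higher for 3 of 3 in MISS KO (median 1.83) and for 0 of 3 in AF2 KO, AF2 WT and MISS WT. No marker of the smooth muscle, epithelium and stroma lists was at background on any array. Their part in the member results was not tested.

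Where several probes read a gene, they mostly gave similar values. Of 29 members with more than 1 tested probe, 23 had AF2 WT changes within 0.3 of each other and 6 spread further, 9 had probes that differed in the call, and 0 had probes called in opposite directions. Nuclear genes of this pathway are known to have many processed pseudogenes, and a short probe cannot always separate them. The brightest probe named Atp5k is annotated to chromosome Y (gene on chromosome 5) and that named Cox5b to chromosome 15 (gene on chromosome 1), so these 2 values are uncertain in their source.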

How the data were processed

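Uterus RNA was read on 1-colour Agilent arrays. The deposited scanner files hold processed intensity values, already background-corrected by Agilent Feature Extraction 10.10.1.1, per the submitters' processing notes. The authors' deposited matrix holds log2 values of 43753 probes; each of its columns correlated best with its own array (0.999 or more), and its array medians (7.558 to 7.564) agree closely, but its normalization is not given in the sources used here beyond the naming of limma. Probe positions are the mm9 positions of the file annotation.

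From the scanner files, log2 intensity minus the 75th percentile of each array was computed, outlier spots were left out, spots of a probe were averaged, and probes that some group had well above background on all its arrays were tested (40337 of 55681). The brightest tested probe stood for a gene. A limma 3.58.1 group-means model (R 4.3.3) over all 31 arrays gave 10 comparisons, with Benjamini-Hochberg adjustment over 26901 genes and a threshold of 0.05. The fit was tested on simulated data.

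Values per array are given for the 2 largest called rises and the 2 largest called falls of each complex in AF2 WT, for up to 6 members per direction called in the AF2 or MISS response difference, in AF2 KO or under placebo, and for the isoform pairs; of the other lists, the 3 largest called changes per direction in AF2 WT and Nnt are named. Genes outside this rule (Ndufs1, Ndufb8 and other members given by their change alone) were chosen after their values were seen. The values of 1 member are not reported here. The members and lists were chosen with earlier results of these data known. Alternatives were quantile and median scaling, normexp with an offset of 50, the authors' matrix, no filter on dim probes, the mean of all probes, slide as a block, leaving out each array, and, chosen after seeing the data, leaving out slide 4.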

Additional observations from a re-analysis of the deposited data

Results flagged for a closer look

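In 26 of the 245 sets of 4 values checked, 1 array stood apart from the other 3; chance marks about 5% of such sets. Most of these are arrays of slide 4, and for each the value that stood apart is given as a log2 level. In AF2 WT with E2 these were 3.07 for Ndufa11, 6.68 for Atp5b and 3.94 for Cox7a2, and median levels of 4.65 over all members, 4.47 for complex I, 4.83 for complex III and 4.07 for complex IV. In AF2 KO with placebo it was 2.43 for Atp5sl, and in AF2 WT with placebo 4.43 for Ndufa6, 3.87 for Sdhd and 3.38 for Cox7a2. In MISS KO with E2 it was -0.26 for Cox4i2. In MISS KO with placebo these were 3.84 for Sdhd, 2.06 for Cox6b2, 4.27 for Ndufc2 and 3.54 for Cox7a2, and median levels of 4.04 for complex II, 3.54 for complex IV and 4.63 for complex V. In MISS WT with E2 these were 4.75 for Sdhd, 6.44 for Atp5g1, 2.85 for Cox6b1 and 4.45 for Cox7a2, and a median of 4.47 for complex IV. In MISS WT with placebo these were -2.9 for Atp5s and a median of 4.05 for complex II.

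Responses to E2 that differed between genotypes, by the limma test of the difference, were in the AF2 line (KO minus WT, log2) 1.28 for Cox7a1, 1.13 for Cox7a2l, 1.09 for Atp5sl, 0.96 for Ndufa6, 0.75 for Cox6b2, -1.82 for Atp5g1, -1.69 for Cox5a, -1.68 for Cox4nb, -1.65 for Ndufa11, -1.49 for Uqcrq and -1.18 for Ndufb6. Between the lines (MISS WT minus AF2 WT) they were 0.62 for Ndufa8, 0.49 for Ndufb6, 0.59 for Ndufb8, 0.28 for Sdha, 0.40 for Uqcrc1, 0.48 for Cox5a, 1.32 for Cox8b and 0.34 for Atp5f1.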

How the results depend on the processing

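With quantile normalization the members called higher and lower were 26 and 16 in AF2 WT (median 0.05), 35 and 11 in MISS KO (0.15), 34 and 14 in MISS WT (0.18), 9 and 26 in the AF2 difference (-0.12) and 2 and 1 in the difference between lines, with 1 lower in MISS KO over MISS WT and 3 higher in MISS WT over AF2 WT under placebo. The authors' matrix gave 26 and 16 in AF2 WT (0.05), 35 and 11 in MISS KO (0.15), 33 and 13 in MISS WT (0.16), 25 lower in the AF2 difference (-0.13), 1 and 1 in the difference between lines, and 4 higher in MISS WT over AF2 WT under placebo. Sdhd in AF2 WT turned to -0.04 with quantile normalization and -0.03 in the authors' matrix. Median scaling gave a median of 0.65 in AF2 WT, 16 lower in AF2 KO (-0.25), 65 lower in the AF2 difference (-0.89), 15 higher in AF2 KO over AF2 WT under placebo (0.19), 0 and 1 in the difference between lines (0.09), and 8 higher in MISS WT over AF2 WT under placebo. Normexp gave 1 lower in AF2 KO, 3 higher in the difference between lines and 4 higher in MISS WT over AF2 WT under placebo. With no filter on dim probes 1 member was higher in AF2 KO over AF2 WT under placebo and 4 in the difference between lines; the mean of all probes gave 1 lower in the difference between lines. Slide as a block gave 1 lower in AF2 KO, 3 lower in the MISS difference, 2 lower in AF2 KO over AF2 WT and 1 lower in MISS KO over MISS WT under placebo, 4 and 1 in MISS WT over AF2 WT under placebo, and 37 and 1 in the difference between lines. Without slide 4, chosen after seeing the data, 1 member was higher in AF2 KO over AF2 WT, 3 in MISS WT over AF2 WT under placebo and 1 in the difference between lines. Except for quantile normalization, the shares of all genes called under these settings are not given here. The cause of these moves was not tested.

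Leaving out 1 array at a time gave 46 to 60 higher and 7 to 8 lower in AF2 WT (median 0.37 to 0.53), 50 to 62 higher in MISS KO, 62 to 66 higher and 6 to 7 lower in MISS WT, and 5 to 6 higher and 35 to 51 lower in the AF2 difference (-0.61 to -0.40). In AF2 KO over AF2 WT under placebo it gave 1 to 2 higher (median -0.07 to 0.09), with 1 without AF2 KO array 1, 3 or 4 or AF2 WT array 2 or 4. In MISS WT over AF2 WT under placebo 0 to 1 were lower, with 1 without MISS WT array 2. In the difference between lines 2 to 9 were higher (0.14 to 0.33): 2 without MISS WT placebo array 1, 3 without AF2 WT placebo array 2 or AF2 WT E2 array 4, 4 without AF2 WT placebo array 1, AF2 WT E2 array 3, MISS WT placebo array 3 or 4 or MISS WT E2 array 1 or 3, and 5 without AF2 WT E2 array 1 or MISS WT E2 array 2. No paired analysis was possible because the labels give no shared replicate numbers: the numbers used here only follow the order of the samples. They match the slide numbers except for AF2 KO E2 arrays 2 and 3, which lie on slides 3 and 4, so arrays share a slide across groups and the slide was used as the block, with the counts above. Among the values of the members named by the rule, each under every alternative, 808 kept their call, 20 lost it, 7 gained it and 2 turned, both of them Sdhd in AF2 WT. Over all 82 members, quantile normalization turned the sign of 23 changes in AF2 WT, 22 in MISS KO and 18 in MISS WT.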
